A study of Mus musculus with 20 samples.

Results

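The genes described here are 10 genes through which R-spondin and canonical Wnt signals are received, damped and read out: *Lgr4*, *Lgr5*, *Lgr6*, *Rnf43*, *Znrf3*, *Axin2*, *Nkd1*, *Lef1*, *Sp5* and *Ctnnb1*. They were taken by gene symbol from a table of 21884 mouse genes, and all 10 were found in it. Their levels were compared between malignant mesothelioma (MM) organoids grown in 3D and 2D MM cell lines of the same 7 tumors. The comparison addresses whether genes of this pathway differed between a culture that received R-spondin1 and a culture that did not.

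Each of the 7 MM lines (m5, m12, m28, m54, m60, m67 and m107) came from a C57/BL6 mouse injected intraperitoneally with fibers, and was sequenced as 1 library of organoids and 1 library of 2D cells. Lines m5, m12, m28, m54 and m60 were from p53+/- mice given crocidolite, an amphibole asbestos. Line m67 was from a wild-type mouse given crocidolite, and m107 was from a p53+/- mouse given carbon nanotube. The organoids were grown on Matrigel in a medium with EGF, R-spondin1, Noggin and the ROCK inhibitor Y-27632. For the 2D cells the methods name EMEM with serum, whereas the labels name DMEM with 10% serum for every sample. R-spondin1, the other factors, the matrix and the serum therefore cannot be told apart in any difference between 3D and 2D. A line is 1 tumor and the lines differ in genotype and fiber, so the error given below is the spread between lines and holds no repeat culture. In bulk RNA, fewer cells that express a gene and less of its RNA per cell cannot be told apart.

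Canonical Wnt ligands bind Frizzled receptors with the coreceptors LRP5 and LRP6, which stops the destruction complex from degrading beta-catenin, and beta-catenin then acts with TCF and LEF factors in the nucleus. R-spondins amplify this: bound to LGR4, LGR5 or LGR6, they draw away RNF43 and ZNRF3, the ubiquitin ligases that clear Frizzled from the cell surface. *Axin2*, *Nkd1*, *Sp5*, *Lef1*, *Rnf43*, *Znrf3* and *Lgr5* are widely used as readouts because they are transcribed in response to beta-catenin in many tissues.

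The libraries held 11134018 to 53911770 reads in genes, so that 3 reads corresponded to 0.0556 to 0.269 CPM (reads of a gene for every 1000000 reads in the library). Several libraries stood apart from their labels. The summed level of 4 Y-linked genes was 0 CPM in m5 organoids and 249 CPM in 2D m5 cells, and was 200 CPM in m12 organoids and 0 CPM in 2D m12 cells, so the libraries labelled m5, and likewise those labelled m12, differed in Y-linked RNA. Over all genes, the deviation of m5 organoids from the organoid mean correlated at 0.004 with that of 2D m5 cells and at 0.095 with that of 2D m12 cells. That of m12 organoids correlated at -0.11 with 2D m12 cells, at 0.19 with 2D m5 cells and, highest, at 0.21 with 2D m67 cells. The other 5 lines each matched their own 2D cells best. The m5 and m12 labels may therefore not pair libraries of the same tumor, which was not tested, and ratios within m5 or m12 below compare the libraries so labelled. In m12 organoids all 10 listed epithelial genes were above 3 reads and summed to 5133 CPM, against 1.92 to 469 CPM in the other organoids and 12.1 to 1178 CPM in 2D cells. The fibroblast and mesenchymal list summed to 1.89 CPM in m12 organoids, against 3510 to 9351 CPM in the other organoids and 8036 to 17218 CPM in 2D cells. Of 10 mesothelial genes, 5 were above 3 reads in m12 organoids, where *Bnc1*, *Gpm6a* and *Upk1b* were at 0, and at least 9 were above it in every other library. *Krt19* and *Msln* were at 2493 and 647 CPM in m12 organoids, the highest of all libraries. The mesothelial list summed to 3141 CPM there, against 605 to 5357 CPM in the other organoids and 577 to 10637 CPM in 2D cells. Of 10 gut genes, 5 were above 3 reads in m12 organoids, among them *Vil1*, *Olfm4* and *Cdx2* at 179, 19.5 and 18.2 CPM, while *Fabp1*, *Cdx1*, *Lyz1*, *Chga* and *Smoc2* were at 0. That list summed to 222 CPM there, against 2.47 to 4.93 CPM in the other organoids and 0.855 to 5.84 CPM in 2D cells. All 10 macrophage and leukocyte genes were above 3 reads in m67 organoids and in 2D m67 cells. They summed to 2109 CPM in m67 organoids and 5.61 to 24.0 CPM in the other organoids, against 35.9 CPM in 2D m67 cells and 2.91 to 48.2 CPM over all 2D cells. Results below are therefore also given without m5 and m12, or without other lines where those carry the difference, and the part of these cell types in the results was not tested.

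The region around the transcription start is shown for *Sp5*, *Axin2* and *Nkd1*, because the first pair of genes followed each other across the libraries and *Nkd1*, also a feedback gene, did not. Each window runs from 250 bases before the start to 50 bases after it, 5′ to 3′, from RefSeq on GRCm38.p6. The windows are chr2:70474673-70474972 for *Sp5*, chr11:108920099-108920398 for *Axin2* and chr8:88527383-88527682 for *Nkd1*, all on the plus strand. Capitals mark the 7-base word CTTTGAA, or the same word with AT, TA or TT in place of its last AA, 4 words in all that fit the sequence that TCF and LEF factors bind, read on either strand.
Sp5: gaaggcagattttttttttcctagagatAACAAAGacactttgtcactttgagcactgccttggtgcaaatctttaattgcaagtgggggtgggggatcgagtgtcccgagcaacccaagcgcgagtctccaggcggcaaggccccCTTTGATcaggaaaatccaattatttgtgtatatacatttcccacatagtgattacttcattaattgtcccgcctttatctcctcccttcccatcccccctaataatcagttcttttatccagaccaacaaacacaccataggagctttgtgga
Axin2: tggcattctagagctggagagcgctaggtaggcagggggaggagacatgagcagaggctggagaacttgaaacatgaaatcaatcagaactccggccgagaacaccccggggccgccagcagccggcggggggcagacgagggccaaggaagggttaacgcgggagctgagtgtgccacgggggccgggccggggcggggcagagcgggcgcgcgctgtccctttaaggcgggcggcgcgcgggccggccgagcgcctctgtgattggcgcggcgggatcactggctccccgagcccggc
Nkd1: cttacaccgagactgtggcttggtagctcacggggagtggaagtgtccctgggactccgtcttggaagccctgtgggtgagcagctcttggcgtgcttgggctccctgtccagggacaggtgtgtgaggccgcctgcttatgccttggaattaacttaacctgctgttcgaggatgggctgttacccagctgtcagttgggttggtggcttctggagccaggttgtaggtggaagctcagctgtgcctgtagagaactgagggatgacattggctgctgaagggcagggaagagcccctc
The *Sp5* window held 2 such words, CTTTGTT on the minus strand and CTTTGAT on the plus strand, and the *Axin2* and *Nkd1* windows held none. Of 32851 windows of this length, 16.9% held at least 1 word and 1.94% held 2 or more. RefSeq windows were found for 8 of the 10 genes, 13 windows in all, and the only other word was CTTTGTA in 1 of the 4 *Lef1* windows. Not matched were *Lgr5* and *Znrf3*. A word is a match of letters only, and its absence from a window says nothing about binding elsewhere.

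Levels of different genes were compared per kilobase of merged exon. *Ctnnb1* was the most abundant, with a median of 99.3 CPM per kb in organoids and 89.8 CPM per kb in 2D cells, and its lowest library was above the highest library of any other of the 10 genes. In organoids the median order below it was *Lgr4* (8.20 CPM per kb), *Nkd1* (2.78), *Znrf3* (2.27), *Axin2* (0.898), *Lgr5* (0.604), *Sp5* (0.398), *Lgr6* (0.105), *Lef1* (0.0464) and *Rnf43* (0.0395). Apart from *Ctnnb1*, every neighbour in that order overlapped the next in its range over the 7 organoid libraries. In 2D cells *Lgr4* (4.57 CPM per kb) and *Znrf3* (2.74) came next after *Ctnnb1*, and *Rnf43* was lowest (0.0367).

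None of the 10 genes passed the test between organoids and 2D cells in limma with line as a block, at a Benjamini-Hochberg adjusted p of 0.05. Of the 11677 genes that reached 1 CPM in at least 7 of 14 libraries, 383 passed (3.28%), 245 higher and 138 lower in organoids. *Rnf43*, *Lef1* and *Sp5* did not reach that level and were read from the same fit on all 18088 genes with a read, in which 63 passed (0.348%). The fold change was positive for 7 genes and negative for 3. Over all 10 its median on the log2(CPM + 1) scale was 0.44, against 0.04 over all 18088 genes, with m5 and m12 included. Without m5 and m12 the log2 fold change was lower for each of the 10 except *Nkd1* (1.34). *Axin2* and *Ctnnb1* were then at 0.14, *Sp5* at 0.03 and *Rnf43* at -0.19. With all lines and at an unadjusted p under 0.05, limma held *Lgr5*, higher in organoids, and *Lef1*, lower. These 2 of 10 were a share near the background, which was 25.2% of genes above the filter and 18.8% of all genes with a read. The test by edgeR on recovered reads passed none of the 10, with 0.668% of the 11677 genes passing. DESeq2 passed *Lgr5* as higher and *Lgr6* as lower, with 16.2% of the 11677 genes passing, and *Lef1* as lower on all genes with a read, where 11.8% passed. The calls therefore depended on the tool. Fold changes below are on the log2(CPM + 1) scale, which understates those of low genes, unless DESeq2 is named.

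**Figure D1:**
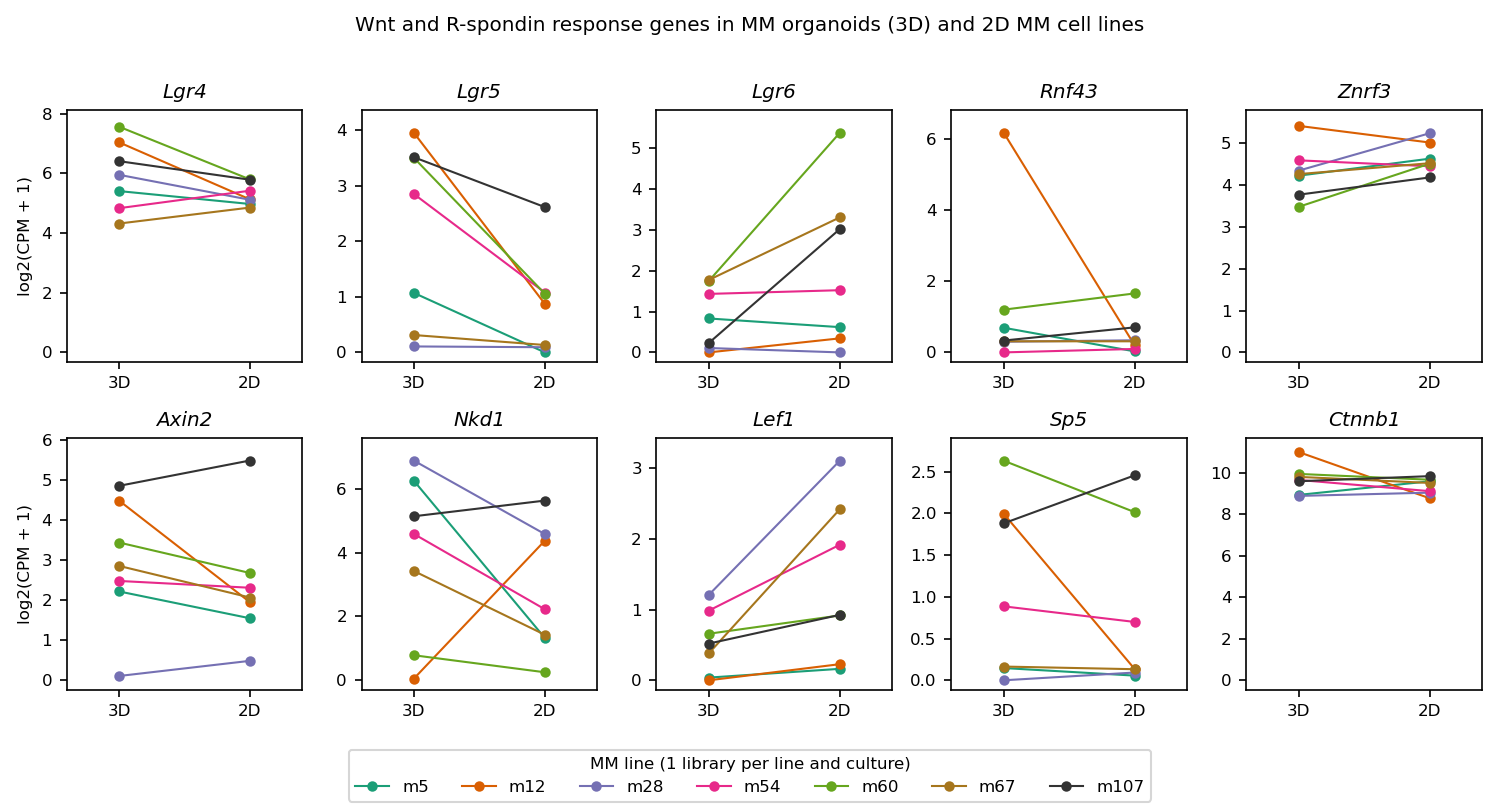
Level of each gene in MM organoids (3D, left) and 2D MM cell lines (right), as log2(CPM + 1), with 1 point per library, the 2 libraries of a line joined and colors naming the 7 lines. *Lgr5* sloped down from 3D to 2D in 7 of 7 lines and *Lef1* sloped up in 7 of 7, while the other genes had lines in both directions. For *Lgr5* in m28, each library had 1 read.

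*Lgr4*, the most widely expressed of the R-spondin receptors (GRCm39 chr2:109747839-109844609), was present in every library. It ranged from 19.0 to 189 CPM with a median of 61.1 CPM in organoids, and from 27.97 to 54.7 CPM with a median of 34.0 CPM in 2D cells. It was higher in organoids in 5 lines, with the widest gaps in m12 (131 against 34.0 CPM) and m60 (189 against 54.7 CPM), and lower in m54 (27.5 against 41.9 CPM) and m67 (19.0 against 27.97 CPM). In each of the 7 lines the 95% interval of the ratio, which covers counting error only, left out 1. The groups overlapped, the log2 fold change was 0.64 ± 0.33 (SE), and the limma adjusted p was 0.258. Without m5 and m12 the log2 fold change was 0.42 ± 0.35 (limma adjusted p = 0.499). Organoids were also more spread than 2D cells, with an SD of 61.6 CPM around a mean of 79.0 CPM, against an SD of 11.1 CPM around 39.6 CPM in 2D cells.

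*Lgr5*, the R-spondin receptor that marks stem cells of the intestine and other epithelia (chr10:115286216-115423685), was higher in organoids in 7 of 7 lines. The organoid libraries had 1.10, 14.4, 0.0770, 6.20, 10.3, 0.242 and 10.4 CPM in m5, m12, m28, m54, m60, m67 and m107, against 0, 0.831, 0.0666, 1.11, 1.08, 0.0964 and 5.12 CPM in 2D cells of the same lines. Organoids of m12, m60, m107 and m54 were above every 2D library, whereas m28 and m67 were near the limit of detection in both cultures. The ratio was 17.4 (95% interval 12.3 to 25.3) in m12, 9.56 (5.83 to 16.7) in m60, 5.59 (3.27 to 10.2) in m54 and 2.03 (1.47 to 2.83) in m107. In m5, where 2D cells had no read, organoids were at least 18.5-fold higher, taking 3 reads as the floor of that library, and the 95% interval of the ratio began at 14.4. The intervals in m28 and m67 included 1, so no difference was detectable there at this depth.

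Across the lines the log2 fold change of *Lgr5* was 1.35 ± 0.40 (SE, 95% interval 0.44 to 2.26), with a limma adjusted p of 0.0885 and a DESeq2 adjusted p of 0.00132. When the signs of the 7 line differences were flipped in every way (exact permutation, two-sided), p was 0.0156, the smallest value possible, without adjustment for the 10 genes so tested. Both this p and the count of 7 of 7 lines take m28 as higher, where each library had 1 read. Without m5 and m12 the log2 fold change was 1.06 ± 0.39 (limma adjusted p = 0.165). The direction was higher in 5 of 5 lines, but m28 had 1 read in each culture and m67 had 4 against 2 reads. Of these lines, only m54, m60 and m107 had an interval of the ratio above 1. The m12 organoids, the library with the strongest epithelial and gut markers, had the highest *Lgr5* of all libraries. Without line m12 alone the log2 fold change of *Lgr5* was 1.06 ± 0.35 (limma adjusted p = 0.0962).

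*Lgr6*, the third receptor of the family (chr1:134911039-135033100), lay lower in organoids in 5 of 7 lines. Organoids ranged from 0 to 2.42 CPM with a median of 0.777 CPM, and 2D cells from 0 to 40.4 CPM with a median of 1.87 CPM. The gap was in m60 (2.36 against 40.4 CPM), m107 (0.173 against 7.10 CPM), m67 (2.42 against 8.87 CPM) and m12, where organoids had no read and were at least 4.83-fold lower against the same floor (95% interval of the ratio up to 0.303). In m5, m28 and m54 the interval of the ratio included 1. Its log2 fold change was -1.15 ± 0.51 (SE), with a limma adjusted p of 0.205 and a DESeq2 adjusted p of 0.0486. Line m60 therefore had the highest *Lgr4* in organoids and the highest *Lgr6* in 2D cells. Without m60, the line with the widest gap, the log2 fold change was -0.74 (limma adjusted p = 0.382), without m107 it was -0.88 (0.327), without m67 it was -1.09 (0.335), and without m5 and m12 it was -1.59 (0.155).

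*Rnf43*, a ubiquitin ligase that removes Frizzled receptors (chr11:87553548-87626377), was low except in 1 library. Organoids of m12 had 71.2 CPM, against 0.147 CPM in 2D m12 cells, a ratio of 486 (95% interval 223 to 1324). The other 6 organoid libraries had up to 1.30 CPM, and the 2D libraries had 0.0198 to 2.16 CPM. Line m60 had 1.30 CPM in organoids and 2.16 CPM in 2D cells, and m5 had 0.617 CPM in organoids and 0.0198 CPM (1 read) in 2D cells, a ratio of 31.1 (95% interval 5.06 to 1283). The m12 organoids are the library with the epithelial profile described above. With all lines its log2 fold change was 0.81 ± 0.78 (SE, limma adjusted p = 0.578), but it was -0.05 ± 0.15 without m12 and -0.19 ± 0.09 without m5 and m12, so the sign rested on m12.

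*Znrf3*, the paralogous ligase (chr11:5226324-5394939), was expressed at an even level. It ranged from 10.2 to 41.7 CPM with a median of 18.2 CPM in organoids, and from 17.2 to 36.8 CPM with a median of 22.0 CPM in 2D cells. It was lower in organoids in 5 of 7 lines, most in m60 (10.2 against 21.8 CPM) and m28 (19.3 against 36.8 CPM), and higher in m12 (41.7 against 31.4 CPM). The log2 fold change was -0.35 ± 0.20 (SE, limma adjusted p = 0.303), and -0.49 ± 0.22 without m5 and m12 (limma adjusted p = 0.231). Thus m12 had the highest organoid level of both ligases.

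**Figure D2:**
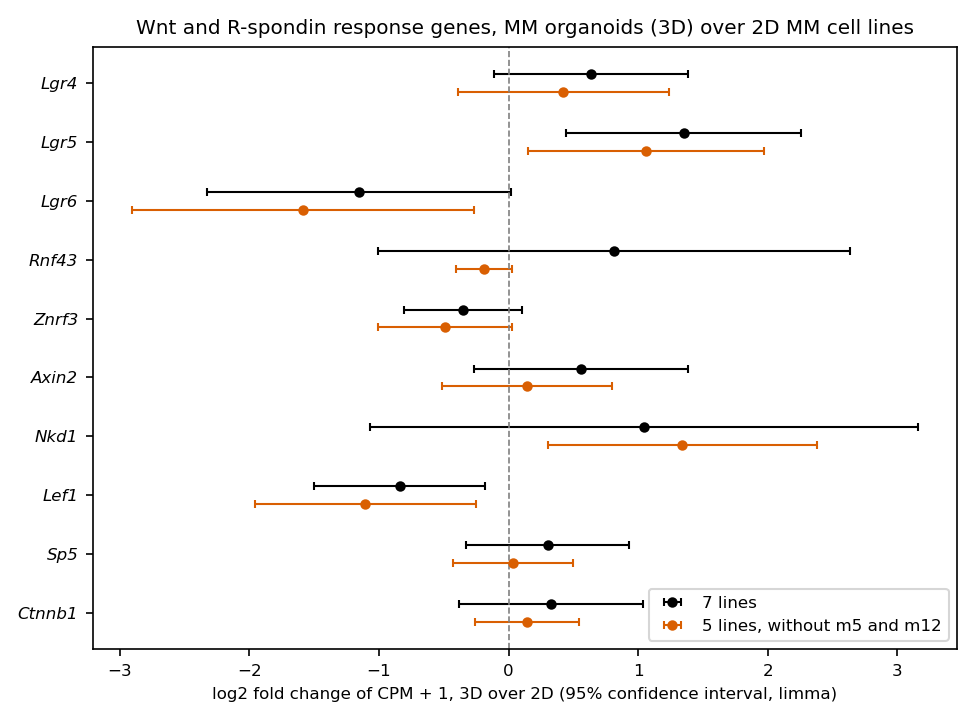
Log2 fold change of CPM + 1 in MM organoids over 2D MM cell lines for each gene, with 95% confidence intervals from limma, for all 7 lines (black) and for the 5 lines without m5 and m12 (orange). Intervals left out 0 for *Lgr5* (0.44 to 2.26) and *Lef1* (-1.50 to -0.18) with 7 lines, and *Rnf43* moved across 0 when m5 and m12 were left out. With those 5 lines, intervals left out 0 for *Lgr5* (0.15 to 1.97), *Lgr6* (-2.90 to -0.27), *Nkd1* (0.30 to 2.38) and *Lef1* (-1.96 to -0.25). None of these passed after adjustment.

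*Axin2*, a scaffold of the destruction complex and a feedback inhibitor (chr11:108811169-108841609), is the readout most often used for canonical Wnt activity. It had 3.65, 21.3, 0.0770, 4.57, 9.82, 6.22 and 27.8 CPM in organoids of m5, m12, m28, m54, m60, m67 and m107, against 1.92, 2.86, 0.400, 3.95, 5.39, 3.18 and 43.7 CPM in 2D cells. Line m107 was the highest and m28 the lowest in either culture. The ratio was 7.47 (95% interval 6.17 to 9.11) in m12 and 1.82 to 1.96 in m5, m60 and m67, with intervals above 1. It was 0.637 (0.551 to 0.735) in m107, and the intervals in m28 and m54 included 1. Over the lines the log2 fold change was 0.56 ± 0.36 (SE, 95% interval -0.27 to 1.38, limma adjusted p = 0.361), and it was 0.23 ± 0.26 without m12 (limma adjusted p = 0.583) and 0.14 ± 0.28 without m5 and m12 (limma adjusted p = 0.791). Of the variance of its log2(CPM + 1) over the 14 libraries, 85.8% lay between lines and 3.60% between cultures. The 7 lines would take a larger share than the cultures also in values without structure. The split paired m5 and m12 as labelled.

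*Nkd1*, which binds Dishevelled and damps Wnt signaling (chr8:89247890-89324577), varied over a wide range. Organoids had 75.1, 0.0371, 117, 23.0, 0.722, 9.73 and 34.2 CPM in m5, m12, m28, m54, m60, m67 and m107, against 1.51, 19.7, 22.9, 3.67, 0.190, 1.69 and 48.5 CPM in 2D cells. It was higher in organoids in 5 lines, with a ratio of 49.9 (95% interval 39.7 to 63.5) in m5 and 3.80 to 6.26 in m28, m54, m60 and m67. It was lower in m107 (ratio 0.705) and in m12, where organoids had 2 reads and the ratio was 0.00188 (95% interval 0.000227 to 0.00681). The m5 and m12 lines thus gave the 2 widest gaps, in opposite directions. Its log2 fold change was 1.04 ± 0.93 (SE, limma adjusted p = 0.507) with all lines, 0.40 without m5 (limma adjusted p = 0.826), 1.94 ± 0.61 without m12 (limma adjusted p = 0.0873) and 1.34 ± 0.45 without m5 and m12 (limma adjusted p = 0.135).

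*Lef1*, a TCF/LEF factor that partners beta-catenin and is itself a target (chr3:130903919-131018005), was lower in organoids in 7 of 7 lines. Organoids had 0.0268, 0, 1.31, 0.979, 0.578, 0.302 and 0.433 CPM in m5, m12, m28, m54, m60, m67 and m107, against 0.119, 0.171, 7.59, 2.77, 0.888, 4.34 and 0.898 CPM in 2D cells. The levels were low, only m28 organoids passed 1 CPM among organoids, and the groups overlapped. The 95% interval of the ratio was below 1 in m28 (ratio 0.172), m54 (0.353), m67 (0.0696) and m12, where organoids had no read, and it included 1 in m5, m60 and m107. The log2 fold change was -0.84 ± 0.28 (SE, 95% interval -1.50 to -0.18), with a limma adjusted p of 0.180 and a DESeq2 adjusted p of 0.00611. The same exact permutation gave p = 0.0156, again the smallest possible and unadjusted. Without m5 and m12 the log2 fold change was -1.11 ± 0.33 (limma adjusted p = 0.233), and without m67, the line with macrophage markers in its organoids, it was -0.64 ± 0.25 (limma adjusted p = 0.319).

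*Sp5*, a zinc-finger factor induced by beta-catenin (chr2:70305267-70308073), was detected mainly in 4 lines. Organoids had 5.20 CPM in m60, 2.99 CPM in m12, 2.68 CPM in m107 and 0.849 CPM in m54, against 3.04 CPM in m60, 0.0977 CPM in m12, 4.49 CPM in m107 and 0.624 CPM in m54 in 2D cells. In m5, m28 and m67 it stayed at or below 0.121 CPM in both cultures. The ratio was 30.6 (95% interval 11.7 to 114) in m12, 1.71 (1.21 to 2.45) in m60 and 0.598 (0.369 to 0.954) in m107. As with *Axin2*, organoids were above 2D cells in m12 and m60 and below them in m107. For *Sp5* the log2 fold change was 0.30 ± 0.27 (SE, limma adjusted p = 0.559), and it was 0.04 ± 0.15 without m12 and 0.03 ± 0.18 without m5 and m12 (limma adjusted p = 0.951). Of its variance, split as for *Axin2* and with the same limits, 84.1% lay between lines and 2.41% between cultures.

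*Ctnnb1*, which encodes beta-catenin (chr9:120757422-120789579), ranged from 475 to 2063 CPM with a median of 811 CPM in organoids, and from 439 to 921 CPM with a median of 734 CPM in 2D cells. The highest value was m12 organoids, 4.70 times 2D m12 cells, and the other lines had ratios of 0.634 to 1.46. The log2 fold change was 0.33 ± 0.31 (SE, limma adjusted p = 0.536), and it was 0.01 ± 0.18 without m12 and 0.14 ± 0.17 without m5 and m12. RNA of *Ctnnb1* does not measure the stability or location of the protein, on which the pathway acts.

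The readout genes did not form a single block. Over the 14 libraries, which share lines in pairs and the m12 organoids as an extreme point, the log2(CPM + 1) of *Axin2* had a Pearson r of 0.80 with *Sp5* and 0.79 with *Lgr5* (Spearman rho 0.90 and 0.82). *Lgr5* and *Sp5* had r = 0.83, and *Lgr4* had r = 0.72 with *Lgr5* and 0.76 with *Sp5*. Within organoids alone the r of *Axin2* was 0.75 with *Sp5* and 0.80 with *Lgr5*, and within 2D cells alone it was 0.85 and 0.93. Among 2D cells m107 was an extreme point, with *Axin2* at 43.7 CPM (next m60, 5.39 CPM) and *Lgr5* at 5.12 CPM (next m54, 1.11 CPM). No r was computed without m107. Without m5 and m12 the r of *Axin2* was 0.78 with *Sp5* and 0.75 with *Lgr5* over 10 libraries. *Axin2* had r = -0.17 with *Nkd1*, -0.42 with *Lef1*, -0.32 with *Znrf3* and 0.41 with *Rnf43* over the 14 libraries. Its r with *Znrf3* was 0.02 within organoids and -0.81 within 2D cells. For *Axin2* the r with *Nkd1* was -0.62 within organoids and 0.30 within 2D cells. The differences between organoids and 2D cells by line had r = 0.94 between *Axin2* and *Sp5* over 7 lines, and 0.77 without m12. These are descriptions over few libraries and carry no test.

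**Figure D3:**
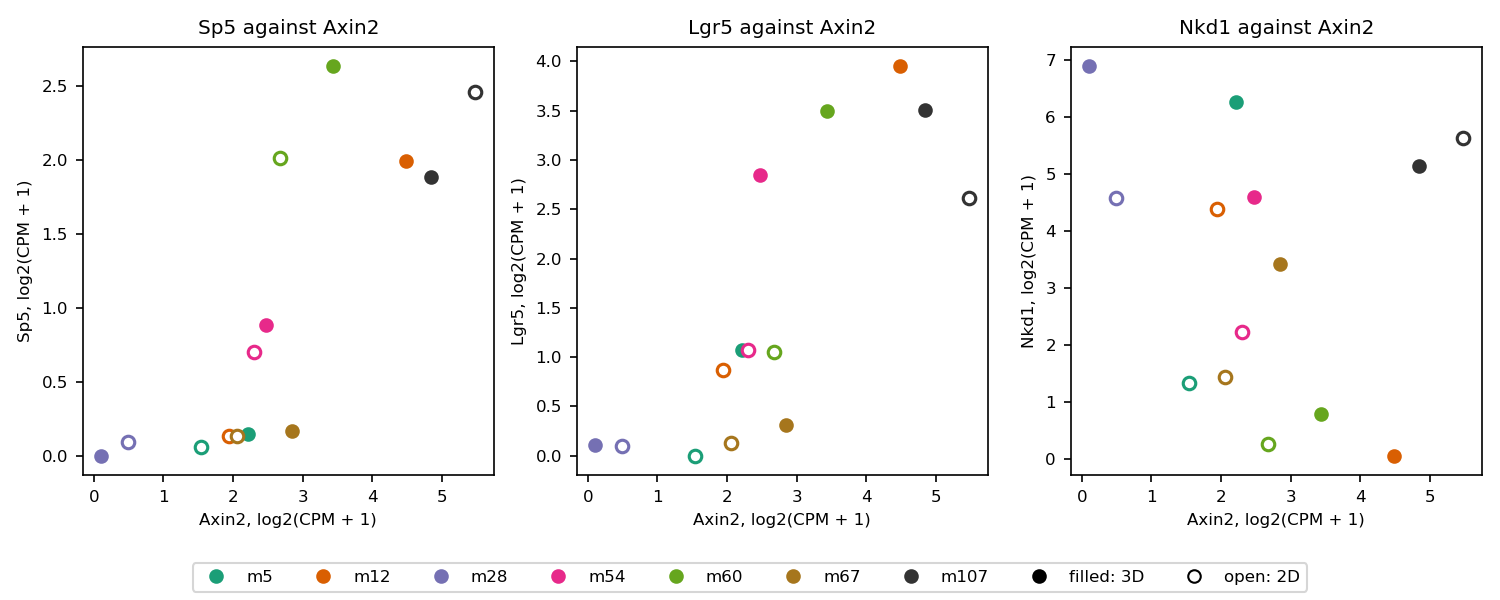
*Sp5*, *Lgr5* and *Nkd1* against *Axin2* in the 14 libraries, both axes as log2(CPM + 1), filled points for MM organoids (3D), open points for 2D MM cell lines and colors for lines. *Sp5* (r = 0.80) and *Lgr5* (r = 0.79) were high where *Axin2* was high, and *Nkd1* (r = -0.17) was not.

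Among all 11677 genes above the filter, those most like *Axin2* over the 14 libraries were *Rbks* (r = 0.93), *Spns2* (0.93), *Cryl1* (0.93), *Pdk2* (0.92) and *Acp5* (0.91). *Lgr5* ranked 122nd and *Ctnnb1* 589th by the same measure. Those most like *Lgr4* were *Kctd14* (r = 0.85), *Pex11g* (0.84), *Gstt3* (0.84), *Ticam1* (0.84) and *Oxsm* (0.83), and *Lgr5* ranked 73rd.

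The rest of the pathway was read from 112 further genes in 8 lists, of which 78 were above the filter. In limma, 2 of them rose and 3 fell in organoids, 6.41% of those tested against 3.28% of all genes, and their median log2 fold change was -0.02 against 0.06 over all genes. Of 10 Wnt ligands tested, *Wnt11*, a ligand known mainly for beta-catenin-independent signaling, fell in 7 of 7 lines. It had 0 to 25.7 CPM with a mean of 5.55 ± 9.22 CPM in organoids, and 6.69 to 94.0 CPM with a mean of 47.6 ± 34.2 CPM in 2D cells (SD, n = 7 each). Its log2 fold change was -3.32 ± 0.40 (SE, limma adjusted p = 0.0128), and it passed with any 1 line left out (highest adjusted p 0.0488). No other ligand passed in limma, among them *Wnt4* (1.70, adjusted p = 0.118), *Wnt6* (1.26, 0.180), *Wnt7b* (2.00, 0.234), *Wnt9a* (-1.05, 0.195) and *Wnt5a* (-1.13, 0.334), given as log2 fold changes with limma adjusted p. *Wnt7b* reached 254 CPM in m12 organoids, against 0.147 CPM in 2D m12 cells.

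Among 15 receptors and coreceptors tested, *Ryk*, a Wnt receptor without active kinase, fell in 7 of 7 lines to 114 ± 33.0 CPM in organoids, against 202 ± 68.6 CPM in 2D cells (SD, n = 7 each), a log2 fold change of -0.81 ± 0.14 (SE, limma adjusted p = 0.0301). *Fzd2* (-1.05, adjusted p = 0.130) and *Fzd6* (-1.45, 0.146) were below 2D cells in 7 of 7 lines but did not pass in limma with all lines. The coreceptors *Lrp5* (0.56, 0.260) and *Lrp6* (0.38, 0.223) did not pass in limma either. Of 4 R-spondin genes, only *Rspo1* was above the filter. It averaged 8.67 ± 14.96 CPM in organoids and 37.0 ± 60.2 CPM in 2D cells (SD, n = 7 each), with a log2 fold change of -1.59 ± 0.63 (SE, limma adjusted p = 0.162), and was lower in organoids in 5 of 7 lines. In m107 it was 41.5 CPM in organoids, against 167 CPM in 2D cells. *Rspo3*, under the filter and not tested, had 140 CPM in 2D m12 cells and 34.5 CPM in 2D m107 cells. It had 0 and 7.28 CPM in organoids of these lines. In m5 and m54 it had 9.57 and 1.11 CPM in 2D cells and 0 CPM in organoids. It was higher in organoids in m60 and m67, at up to 2.48 CPM. In m28 it was at 0.0770 CPM in organoids, under 3 reads, and 0 CPM in 2D cells.

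Of 7 secreted antagonists tested, *Sfrp4*, a Frizzled-related decoy, fell in 7 of 7 lines to 1.10 ± 0.993 CPM in organoids, against 10.9 ± 9.92 CPM in 2D cells (SD, n = 7 each), a log2 fold change of -2.23 ± 0.38 (SE, limma adjusted p = 0.0300). *Frzb*, an antagonist under the filter and not tested, had 52.7 CPM in m5 organoids and 99.2 CPM in m28 organoids. Its highest 2D library had 0.507 CPM. It was lower in organoids in m12 (0.0185 against 0.269 CPM) and at 0 CPM in both cultures in m107. Of 13 TCF factors and cofactors tested, *Tle3*, a Groucho corepressor, rose to 153 ± 27.3 CPM in organoids, against 94.2 ± 33.6 CPM in 2D cells (SD, n = 7 each; limma adjusted p = 0.0494). *Tle2* (1.71, adjusted p = 0.0563) and *Ctnnbip1*, an inhibitor of beta-catenin (-0.63, 0.0597), lay on the same side in 7 of 7 lines without passing in limma. None of 16 genes of the destruction complex and Dishevelled passed in limma, edgeR or DESeq2, with 2, 3 and 4 of them at an unadjusted p under 0.05 in these tools, against 25.2%, 23.4% and 29.4% of all genes tested. Of 14 other reported targets tested, *Sox9*, a progenitor transcription factor, rose in 7 of 7 lines to 52.0 ± 31.3 CPM in organoids, against 11.95 ± 9.97 CPM in 2D cells (SD, n = 7 each), a log2 fold change of 2.26 ± 0.34 (SE, limma adjusted p = 0.0234). *Ccnd1* (0.91, adjusted p = 0.257), *Myc* (0.12, 0.831), *Lbh* (-2.13, 0.116) and *Ccn4* (-2.19, 0.155) did not pass in limma.

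With 1 line left out these calls were less firm than that of *Wnt11*. *Ryk* and *Sfrp4* missed the threshold when m5, m28, m54, m60 or m67 was dropped (limma adjusted p at most 0.0926 and 0.0898), while *Sox9* did so when m5, m28, m54 or m67 was dropped (at most 0.0806) and *Tle3* when any line other than m12 was dropped (at most 0.122). Without both m5 and m12, *Wnt11* (adjusted p = 0.0226), *Sfrp4* (0.0419) and *Sox9* (0.0106) passed in limma, while *Ryk* (0.0616) and *Tle3* (0.0860) did not. *Fzd6*, which had not passed with all lines, passed as lower without m5 and m12 (log2 fold change -0.99, limma adjusted p = 0.0407). Of the pathway genes, 2 passed as higher and 3 as lower in that setting. On recovered reads edgeR passed only *Ryk* of the 78 genes (adjusted p = 0.0436), with *Wnt11* at 0.0512, that is 1.28% against 0.668% of all genes. DESeq2 passed 4 as higher (*Wnt4*, *Tle2*, *Tle3* and *Sox9*) and 9 as lower (*Wnt11*, *Rspo1*, *Ryk*, *Fzd2*, *Sfrp4*, *Ctnnbip1*, *Fgf18*, *Lbh* and *Dact1*), 16.7% of the 78, a share near its background of 16.2%. Over all genes, 14 were higher and 8 lower in limma without m54, and 508 and 263 without m12.

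**Figure D4:**
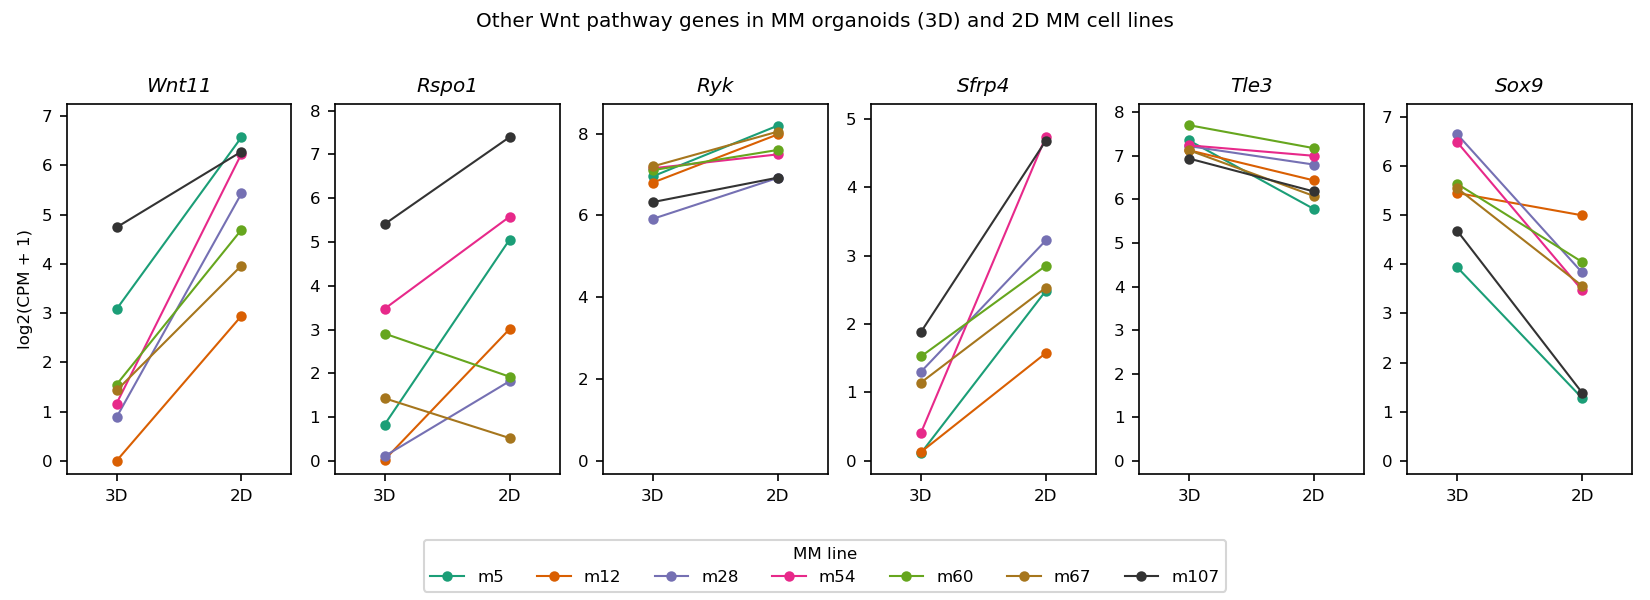
Level of 6 other Wnt pathway genes in MM organoids (3D, left) and 2D MM cell lines (right), as log2(CPM + 1), with 1 point per library and the 2 libraries of a line joined. *Wnt11*, *Ryk* and *Sfrp4* were lower and *Tle3* and *Sox9* higher in organoids in 7 of 7 lines, and *Rspo1* was lower in 5 of 7.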

How the data were processed

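RNA of mouse MM organoids and 2D MM cell lines was sequenced from a directional library kit, and 14 libraries were used; 6 libraries of normal mesothelial cells are listed and were not analysed here. Per the submitters' processing notes, the authors used FastQC 0.10.0, Trim Galore 0.6.4, STAR 2.7.9a, HTSeq 0.12.4 and edgeR, with genome GRCm39. The deposited values are CPM, made by the authors from reads per gene. The authors' own p, q and ranking columns are in the same table and were not used. Values were whole multiples of 1 read in 100% of cases (tolerance 0.001 reads), so reads were recovered.

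The main test was limma 3.58.1 (R 4.3.3) with trend on log2(CPM + 1), with culture and line as terms, on genes of at least 1 CPM in 7 of 14 libraries, with Benjamini-Hochberg adjustment at 0.05. Alternatives were pseudocounts of 0.1 and 5, no filter or a mean minimum of 10 CPM, scaling by TMM, no replicate block, edgeR 4.0.16, DESeq2 1.42.0, each line left out, without m5 and m12, and only the 5 crocidolite p53+/- lines. Replicate numbers are line names and pair the samples: deviations from the culture means correlated best with the same line in 5 of 7 lines, with r from 0.32 to 0.70, but not in m5 (r = 0.004) and m12 (r = -0.11). Ratios within a line carry exact 95% binomial intervals, which cover counting error only. Sign-flip permutation tests enumerated all flips of the 7 line differences. The fits were tested on simulated data.

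The 10 genes and the lists were chosen with earlier results of these data known. Named are all 10 genes, up to 4 tested genes of each list with the smallest p in each direction, and the 5 genes most correlated with *Axin2* and with *Lgr4*. Of genes under the filter, *Rspo3* is named for its level in 2D cells and *Frzb* for its level in organoids. Of the lists, markers are given as sums, with some single genes. Merged exon lengths and GRCm39 positions were taken from GENCODE. Python 3.11.15, numpy 2.4.6, pandas 2.3.3, scipy 1.17.1 and matplotlib 3.10.9 were used.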

Additional observations from a re-analysis of the deposited data

Results flagged for a closer look

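Levels and line differences of the 10 genes were screened in 30 groups of 7 libraries or lines for a highest or lowest value far from the rest, and 5 groups had 1; chance gives about 1 in 20. All values are log2(CPM + 1) or differences on that scale, organoids minus 2D cells. *Rnf43* in m12 organoids was at 6.17, with the next organoid library at 1.20, and its difference in m12 was 5.98, with the next line at 0.66. The *Ctnnb1* difference in m12 was 2.23, with the next line at 0.54. In 2D cells *Lgr5* was at 2.61 in m107, with the next library at 1.08, and *Rnf43* was at 1.66 in m60, with the next at 0.70. The m12 organoids are also the library with the epithelial and gut markers, and the part of those cells in these values was not tested.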

How the results depend on the processing

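Of 161 values of the 10 genes under 17 alternatives, 156 kept their direction and side of the threshold. *Rnf43* (main 0.81) ranged from -0.050 without m12 to 1.02 with 1 line left out, and was -0.19 without m5 and m12, and DESeq2 passed *Lgr5* (2.76), *Lgr6* (-2.24) and *Lef1* (-2.28), so that 1 of the 10 was called higher and 2 lower. Main counts were 245 genes higher and 138 lower, and 2 and 3 in the pathway lists. Counts were 1012 higher and 874 lower in DESeq2 (pathway 4 and 9), 43 and 35 in edgeR (0 and 1), 36 and 27 with no filter (0 and 1), and 8 and 6 in the 5 crocidolite p53+/- lines (0 and 1). Without the replicate block, that is, without pairing by line, they were 81 and 58 (pathway 0 higher), and none of the 10 genes was called. TMM scaling and a pseudocount of 0.1 each left 1 pathway gene higher. With 1 line left out, 14 to 508 genes were higher and 8 to 263 lower, and 0 to 5 and 1 to 4 in the pathway lists. The cause of these changes was not tested. Depth limits *Rnf43*, *Lef1* and *Sp5*, and also *Lgr5* and *Lgr6*, which all lay near or under 3 reads in several libraries.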
